A study of Mus musculus with 6 samples.

Results

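Sh2d3c, Bcar3, Bcar1, Nedd9, Efs, Crk, Crkl, Rapgef1, Rap1a and Rap1b encode a protein chain carrying signals from surface receptors to the small GTPase Rap1. Their expression was examined in the prefrontal cortex (PFC) of mice reared under early life stress (ELS). The 10 genes were selected by symbol from the 22000 symbols of the count table, and all 10 passed the filter on low counts that left 13185 genes. Sh2d3c was chosen for its higher level in ELS mice in these same libraries, so its difference is given as a description with no test. The other 9 genes were chosen for their place in the pathway and were tested.

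A library per mouse was sequenced from PFC RNA, for 3 control mice and 3 ELS mice. All were wild-type C57BL/6N males at 9 weeks of age. ELS mice had been housed alone in cages with filter caps from weaning into adolescence and stayed in that housing until dissection. Controls were kept in groups in cages without caps, and all mice had gone through behavioural tests. By the study's account, control and ELS mice came from litters of the same mother. The study does not say which sequenced mice shared a cage or litter, so mice of a group may not be fully independent. Total counts ran from 28405795 to 35241743 per mouse, and each ELS library held more counts than each control library. Levels are given as CPM, a gene's counts relative to the total of its library, scaled by the TMM method. Both the spread between 3 mice and, for genes with few reads, counting error limit the precision. In bulk tissue, fewer cells of a type and less RNA per cell cannot be told apart.

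Sh2d3c and Bcar3 belong to the NSP family, which pairs an SH2 domain with a domain shaped like a Ras exchange factor that in these proteins binds Cas scaffolds. The Cas proteins (Bcar1, Nedd9, Efs and Cass4) are phosphorylated on many tyrosines by Src and focal adhesion kinases, and the phosphorylated sites recruit the SH2 domains of Crk and Crkl. The SH3 domains of Crk proteins in turn hold Rapgef1, an exchange factor that loads Rap1 with GTP, and DOCK proteins that activate Rac. In brain this chain is known for integrin adhesion, Eph receptor signalling and the reelin pathway of migrating neurons. The Sh2d3c protein is also known from endothelial and lymphoid cells.

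Sh2d3c lies on the plus strand of mouse chromosome 2 (GRCm38, chr2:32721055-32755512) and has 6 annotated transcripts, of which Sh2d3c-201 and Sh2d3c-202 encode protein. These isoforms begin at different first exons, at 32721055 and 32727706, and the deposited count per gene adds their reads together. The first coding exons that tell the isoforms apart, and the first coding exon they share, are shown to place what the count cannot separate. The sequences are from GENCODE M21, read 5′ to 3′ on the plus strand, with the start codon in capitals.
Sh2d3c-201 first coding exon, chr2:32721159-32721195: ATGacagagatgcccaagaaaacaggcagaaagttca
Sh2d3c-202 first coding exon, chr2:32727763-32727806: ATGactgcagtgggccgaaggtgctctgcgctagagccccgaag
Sh2d3c first shared coding exon, chr2:32737519-32737558: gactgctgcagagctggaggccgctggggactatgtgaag
The coding sequence is 2562 bp in Sh2d3c-201, over a transcript of 12 exons, and 2106 bp in Sh2d3c-202, over 11 exons. Of the 5233 exonic bases of the gene, 3.33% are also covered by exons of 6330409D20Rik on the opposite strand, and the shared coding exon lies whole within an exon of that gene (chr2:32737500-32737631). The count table holds no row under the symbol 6330409D20Rik. The study's methods name a stranded library kit. The strand setting of the counting is not given in the sources used here, so reads from that overlap cannot be assigned with certainty.

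Sh2d3c was higher in every ELS mouse than in every control mouse. It stood at 15.9, 18.1 and 15.0 CPM in control mice and at 23.1, 20.7 and 25.7 CPM in ELS mice. Control mice averaged 16.3 ± 1.59 CPM and ELS mice 23.2 ± 2.52 CPM (mean ± SD over 3 mice), a 1.42-fold difference. The counts behind these levels were 488, 510 and 429 reads in controls and 769, 723 and 829 reads in ELS mice. The log2 fold change from edgeR was 0.51. Among the 13185 genes tested, 98 (0.743%) had a higher log2 fold change. Groups that did not overlap, with ELS higher, were found for 3.81% of all genes tested. Nothing is read from either share for Sh2d3c, because this contrast chose it. Leaving out any of the 6 mice gave log2 fold changes from 0.42 (without ELS mouse 3) to 0.59 (without control mouse 2).

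Bcar3, the other NSP gene, which is known for binding Bcar1 in breast cancer cells, had the same mean in both groups. Its levels were 19.0, 17.7 and 18.6 CPM in control mice and 19.0, 16.7 and 19.8 CPM in ELS mice, and the control values lay inside the range of the ELS values. The log2 fold change was 0.003 with a standard error of 0.0908, and the 95% interval ran from -0.19 to 0.20. The log2 ratio of Sh2d3c to Bcar3 within a mouse was -0.26, 0.03 and -0.31 in controls and 0.28, 0.31 and 0.38 in ELS mice. These ratios did not overlap between the groups, and their means differed by 0.51, which again reflects the choice of Sh2d3c. Antisense gene Gm42836 covers 12.5% of the exonic bases of Bcar3.

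**Figure D1:**
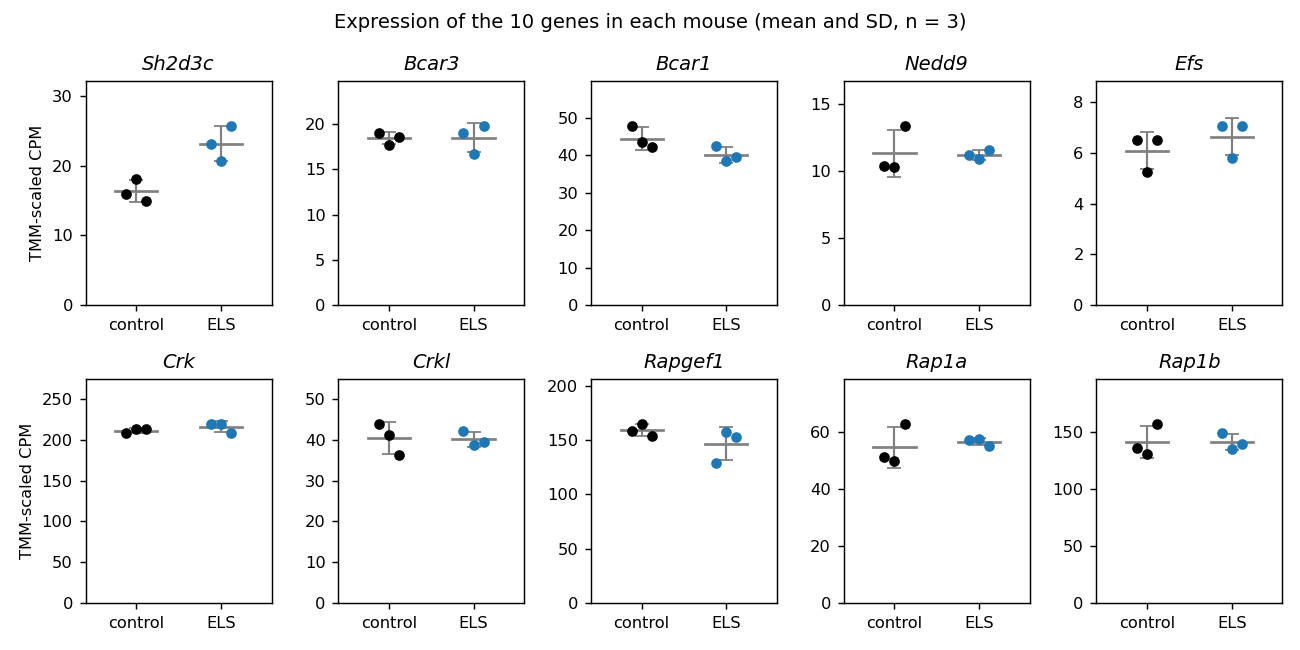
TMM-scaled CPM (vertical axes, from 0) of the 10 genes in each control mouse (black) and ELS mouse (blue); grey lines give the mean and SD of 3 mice. Sh2d3c, at 15.0 to 18.1 CPM in controls and 20.7 to 25.7 CPM in ELS mice, is the gene whose groups do not overlap, and the groups of the other 9 genes overlap.

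None of the 9 other genes was called. To be called, a gene needed a log2 fold change beyond 0.3 in size and a p-value under 0.05 after Benjamini-Hochberg adjustment, which 2 of the 13185 genes met (0.0152%) with the edgeR quasi-likelihood test and 18 (0.137%) with DESeq2. DESeq2 called 0 of the 9 as well, and the adjusted p from edgeR was 1 for each of them. At an unadjusted p under 0.05 edgeR passed 0 of the 9, against 4.23% of all genes. Groups that did not overlap in either direction numbered 0 of the 9, against 8.28% of all genes. Of the 9 genes, 5 had a positive and 4 a negative log2 fold change, with a median of 0.001, and over all genes the median was -0.005 with 6269 positive and 6916 negative. The 9 values ran from -0.15 to 0.12 and their 95% intervals together spanned -0.31 to 0.43. For 9 genes, a count of 0 is near these background shares.

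**Figure D2:**
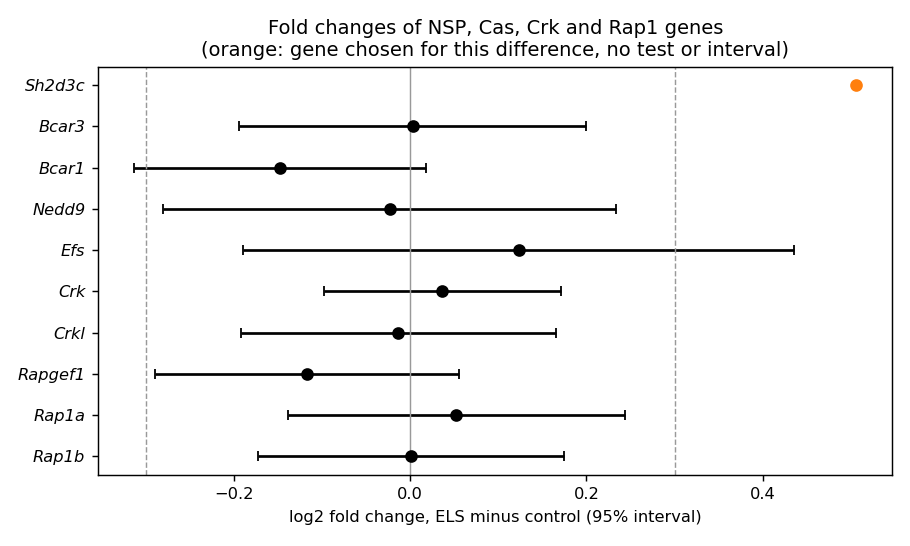
Log2 fold change, ELS minus control (horizontal axis), of the 10 genes, with 95% intervals from the edgeR quasi-likelihood fit for the 9 tested genes; dashed lines mark the threshold of 0.3 in each direction. Sh2d3c (orange) was chosen for this difference and is drawn without an interval at 0.51, while the 9 tested genes lie between -0.15 and 0.12 with intervals that include 0.

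Among the Cas scaffolds, Bcar1 had the smallest p of the 9 genes and leaned lower in ELS mice. Bcar1, the founding member of the family, measured 47.8, 43.4 and 42.1 CPM in control mice and 42.5, 38.4 and 39.5 CPM in ELS mice. The highest ELS mouse lay just above the lowest control mouse, so the groups overlapped. The means were 44.4 ± 2.99 and 40.1 ± 2.10 CPM (SD, n = 3 each). The log2 fold change of -0.15 had a standard error of 0.0762 and a 95% interval from -0.31 to 0.02 (edgeR, adjusted p = 1).

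Nedd9, a Cas protein tied to cell migration and division, was at 10.4, 10.3 and 13.4 CPM in control mice and at 11.2, 10.9 and 11.6 CPM in ELS mice. The ELS mice all lay within the control range, which 1 control mouse widened, and the log2 fold change was -0.02 (SE 0.118, 95% interval from -0.28 to 0.23). Efs, a Cas protein that binds Src family kinases, was at 6.50, 5.24 and 6.53 CPM in controls and at 7.05, 5.81 and 7.07 CPM in ELS mice. In each group 2 mice stood above the remaining mouse, the groups overlapped, and the log2 fold change was 0.12 (SE 0.144). Efs had the widest interval of the 9 genes, from -0.19 to 0.43. Cass4, the remaining Cas gene, was below the filter at 0.177 to 0.552 CPM (5 to 17 reads per mouse) and was not tested.

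Crk had the narrowest interval of the 9 genes. It was at 208, 213 and 213 CPM in control mice and at 220, 220 and 209 CPM in ELS mice, so that 1 ELS mouse fell among the controls. Its log2 fold change was 0.04 (SE 0.0621) with a 95% interval from -0.10 to 0.17. Crkl, the paralogue that is a major substrate of the Abl kinases, was at 44.0, 41.2 and 36.3 CPM in controls and at 42.1, 38.8 and 39.4 CPM in ELS mice. The controls of Crkl enclosed the ELS mice, and its log2 fold change was -0.01 (SE 0.0824, 95% interval from -0.19 to 0.16). Crk varied least of the 10 genes between mice of a group, with a pooled SD of 0.0334 on the log2 scale, against 0.113 for the median gene tested. Sh2d3c varied more than the median gene within groups, at 0.148, and of the 10 genes only Nedd9 (0.155) and Efs (0.172) exceeded it.

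Rapgef1, the exchange factor bound by Crk, was at 158, 165 and 154 CPM in control mice and at 129, 157 and 153 CPM in ELS mice. A single ELS mouse, at 129 CPM, stood apart below the others, and without it the log2 fold change moved from -0.12 (SE 0.0794, 95% interval from -0.29 to 0.06) to -0.04. Rap1a was at 51.2, 49.8 and 63.0 CPM in controls and at 57.4, 57.5 and 55.2 CPM in ELS mice. Rap1b, the other Rap1 gene, was at 136, 130 and 157 CPM in controls and at 149, 135 and 139 CPM in ELS mice. In both Rap1 genes control mouse 3 was the highest of the 6 mice and the ELS mice lay inside the control range. Their log2 fold changes were 0.05 (SE 0.0881, 95% interval from -0.14 to 0.24) and 0.001 (SE 0.0802, 95% interval from -0.17 to 0.17). Without control mouse 3 the log2 fold change of Rap1a was 0.165 and the lowest adjusted p of any of the 9 genes under any alternative, 0.359, was reached.

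Levels were then compared between genes as TMM-scaled CPM per kilobase of exon (RPKM), using the union of annotated exons. The Rap1 end of the chain was high and the NSP and Cas end low. Over the 6 mice Rap1b stood at 48.9 ± 3.51 RPKM and Crk at 45.2 ± 1.13 RPKM (SD), followed by Rap1a at 21.4 ± 1.84 and Rapgef1 at 20.7 ± 1.64. Bcar1 (9.30 ± 0.727) and Crkl (7.99 ± 0.538) came next, then Sh2d3c (3.77 ± 0.802), Bcar3 (3.30 ± 0.198), Efs (2.18 ± 0.246) and Nedd9 (1.77 ± 0.179). Cass4 closed the order at 0.0711 ± 0.0243 RPKM. Neighbours whose ranges over mice overlapped were Rap1b with Crk, Rap1a with Rapgef1, Bcar1 with Crkl, Sh2d3c with Bcar3, and Efs with Nedd9. With the union of exons, Rap1b was above Crk, Bcar1 above Crkl and Efs above Nedd9 in all 6 mice. The order of Rap1a and Rapgef1 and of Sh2d3c and Bcar3 differed between mice. These levels depend on the exon length used: with the longest transcript, Sh2d3c stood at 6.35 RPKM and Bcar1 at 13.5 RPKM. Rap1b and Crk then stood closer, at 51.7 and 49.9 RPKM, as did Efs and Nedd9, at 2.35 and 2.32 RPKM. By that length the order within each of these closer pairs differed between mice.

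**Figure D3:**
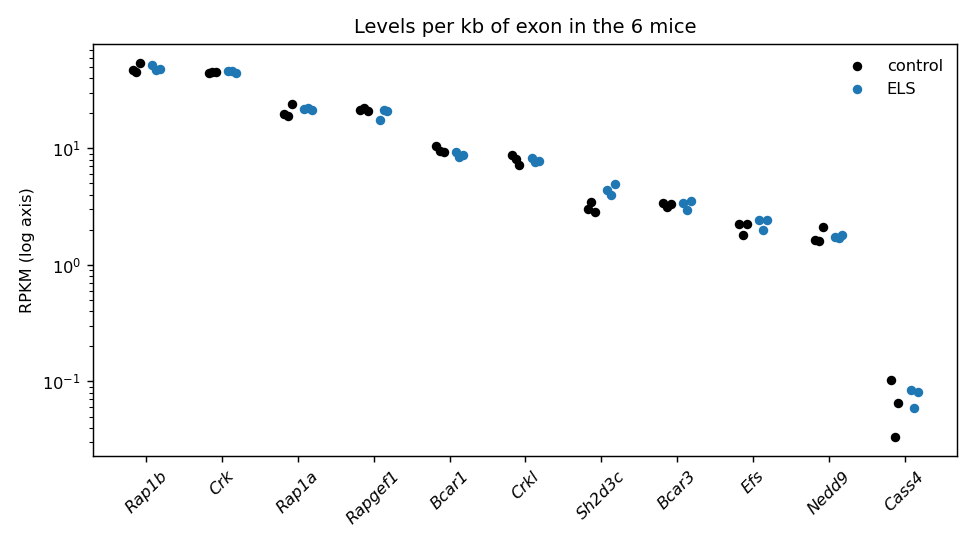
Level per kilobase of exon (RPKM, log axis) of the 10 genes and Cass4 in each control mouse (black) and ELS mouse (blue), in the order of the mean over 6 mice. Rap1b and Crk lie near 48.9 and 45.2 RPKM and Sh2d3c near 3.77 RPKM, where its ELS mice sit above its control mice.

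Within each family the division between paralogues was also measured per length. Sh2d3c made up 47.2%, 52.2% and 46.3% of the summed RPKM of the NSP genes in control mice and 56.5%, 57.0% and 58.1% in ELS mice. Its share was above that of Bcar3 in 1 control mouse and in all 3 ELS mice, a pattern that follows from the gene chosen. Bcar1 held 66.8% to 73.5% of the Cas total, Efs 13.8% to 18.6% and Nedd9 11.3% to 15.4%. Crk held 83.4% to 86.2% of the Crk total, and Rap1b 67.9% to 70.6% of the Rap1 total. Within-mouse log2 ratios of CPM were compared for 4 pairs by exact two-sided permutation of the 6 mice, for which the smallest p that 3 against 3 can give is 0.1. ELS minus control differed by -0.04 for Crkl over Crk (exact p = 0.7, adjusted over the 4 pairs p = 0.7), by -0.06 for Rap1b over Rap1a (exact p = 0.4, adjusted p = 0.667), by 0.13 for Nedd9 over Bcar1 (exact p = 0.5, adjusted p = 0.667) and by 0.27 for Efs over Bcar1 (exact p = 0.2, adjusted p = 0.667). The difference for Nedd9 over Bcar1 moved to 0.02 without control mouse 1 and to 0.29 without control mouse 3.

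The genes around this chain were taken from lists of regulators and partners. Of 102 listed genes 97 were tested, 0 were called by edgeR or DESeq2, and 7 had an unadjusted p under 0.05, with 42 higher and 55 lower in ELS mice and a median log2 fold change of -0.02. Groups did not overlap for 3 genes with ELS higher and 5 with ELS lower. The shares over all genes were 4.23% and 8.28%, and the 7 genes came from the Eph receptors (4), the Rap2 and R-Ras GTPases (2) and the Cas partners (1). The smallest adjusted p over the lists was 0.91 (edgeR), for Ephb2, and it was 1 for every other listed gene named here. The values named are log2 fold changes, ELS minus control, with their SE, for the genes with the smallest p in each direction of a list.

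Among 17 Cas kinases, phosphatases and focal adhesion partners, 7 were higher and 10 lower, with a median of -0.01. Ptpn1, a tyrosine phosphatase that acts on Bcar1, had the smallest p in the downward direction, with means of 48.7 ± 3.02 CPM in controls and 42.1 ± 2.47 CPM in ELS mice (log2 fold change -0.21, SE 0.0756, groups not overlapping). Ptk2, the focal adhesion kinase, had the smallest p upward (0.09, SE 0.0691). In the DOCK, ELMO and Rac arm of Crk signalling 6 of 11 genes were higher and 5 lower (median 0.001), led by Dock5 upward (0.09, SE 0.119) and Elmo3 downward (-0.35, SE 0.279).

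Of 18 other exchange factors and GTPase activators of Rap1, 3 were higher and 15 lower in ELS mice, with a median log2 fold change of -0.06. The values were small: they ran from -0.18 to 0.07, and 0 of the 18 had an unadjusted p under 0.05. Sipa1l2, a Rap GTPase activator, had the smallest p downward (-0.18, SE 0.0868), Rapgef5, an exchange factor, upward (0.07, SE 0.0749), and Rapgef3, the cAMP-activated exchange factor, was the gene whose groups did not overlap (29.4 ± 0.241 CPM in controls, 26.6 ± 1.55 CPM in ELS mice). Of 8 Rap1 effectors 3 were higher and 5 lower (median -0.03), with Apbb1ip, which links Rap1 to integrin activation, at 0.24 (SE 0.139) and the Rac exchange factor Tiam1 at -0.12 (SE 0.0847). Among 6 Rap2 and R-Ras GTPases 5 were higher and 1 lower, with a median of 0.04. Rras2 was at 15.3 ± 0.899 CPM in controls and 18.2 ± 0.241 CPM in ELS mice (log2 fold change 0.25, SE 0.0857), Rap2b at 79.2 ± 1.66 and 89.1 ± 6.66 CPM (0.17, SE 0.0710) and Mras at 268 ± 5.82 and 246 ± 8.0 CPM (-0.12, SE 0.0626). The groups did not overlap for these 3 of the 6 GTPases, against 8.28% of all genes.

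Eph receptors, to which the SH2 domain of Sh2d3c can bind, gave 4 of the 7 genes with an unadjusted p under 0.05. That is 4 of 12 tested receptors, against 4.23% of all genes, and 3 of the 12 did not overlap between groups (1 higher, 2 lower), against 8.28%. Of the 12 receptors 5 were higher and 7 lower (median -0.04), and none was called by edgeR or DESeq2. Ephb2 was at 20.2 ± 1.55 CPM in controls and 16.2 ± 1.61 CPM in ELS mice (log2 fold change -0.32, SE 0.0990, edgeR adjusted p = 0.91), and Epha8 was likewise lower (-0.39, SE 0.146). Epha3, at 7.62 ± 0.310 CPM in controls and 9.92 ± 1.83 CPM in ELS mice (0.38, SE 0.141), and Epha7 (0.20, SE 0.0843) were higher. The 7 tested ephrins, their ligands, split into 3 higher and 4 lower (median -0.01), with Efnb2 at 0.12 (SE 0.0797) and Efna5 at -0.17 (SE 0.153). Of 4 genes that link reelin to Crk 3 were higher and 1 lower (median 0.01), with the adaptor Dab1 at 0.06 (SE 0.0669) and the receptor gene Lrp8 at -0.15 (SE 0.0971). The 14 tested integrins split into 7 higher and 7 lower (median 0.001), with Itga4 at 0.14 (SE 0.147) and Itga9 at -0.32 (SE 0.165).

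**Figure D4:**
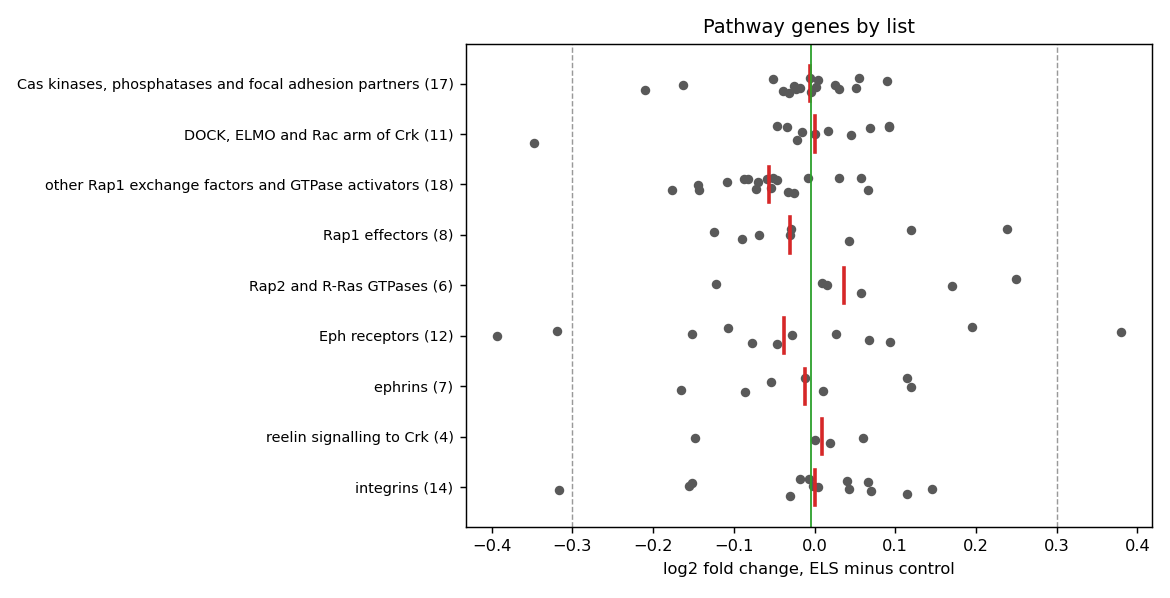
Log2 fold change, ELS minus control (horizontal axis), of the 97 tested genes around the Cas and Crk adaptors, 1 point per gene and 1 row per list with the number tested in brackets. Red bars give list medians, the green line the median of all 13185 genes (-0.005) and dashed lines the threshold of 0.3 in each direction; list medians lie between -0.06 and 0.04.

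Because Sh2d3c is known from vascular cells, markers of cell types in the tissue were set beside it. All 16 endothelial markers were tested, with 11 higher, 5 lower, 2 at an unadjusted p under 0.05 (Cldn5 and Mfsd2a, against 4.23% of all genes) and 0 called by edgeR or DESeq2, and their median log2 fold change was 0.03. Their summed level was 422 to 460 CPM in control mice and 411 to 481 CPM in ELS mice, and the groups overlapped. Cldn5, a tight junction gene, was at 32.9, 36.5 and 27.9 CPM in controls and 42.8, 35.6 and 42.1 CPM in ELS mice (log2 fold change 0.31, SE 0.103, edgeR adjusted p = 0.97). Pecam1 (-0.01, SE 0.0883), Cdh5 (0.13, SE 0.140) and Flt1 (0.10, SE 0.0986), which mark endothelium through junction proteins and a VEGF receptor, were smaller in difference. Tek, an angiopoietin receptor gene, was second to Cldn5 among the higher markers (0.25, SE 0.122, edgeR adjusted p = 1) with groups that overlapped, and the lipid transporter gene Mfsd2a was lower in each ELS mouse (-0.33, SE 0.0810, edgeR adjusted p = 0.66).

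As a share of the summed endothelial markers in the same mouse, Sh2d3c was at 3.44%, 4.28% and 3.51% in controls and 4.95%, 5.03% and 5.35% in ELS mice. As a share of Pecam1 it was at 75.7%, 88.1% and 79.9% in controls and 107%, 111% and 130% in ELS mice. As a share of Cldn5 it was at 48.2%, 49.5% and 53.6% in controls and 53.9%, 58.0% and 61.1% in ELS mice. These shares did not overlap between the groups, which again reflects the choice of Sh2d3c for its difference, and that against Cldn5 had the narrowest gap, from 53.6% in the highest control to 53.9% in the lowest ELS mouse. Of 9 mural cell markers 7 were higher and 2 lower (median 0.13), with summed levels of 307 to 329 CPM in controls and 313 to 351 CPM in ELS mice. The pericyte genes Pdgfrb (0.28, SE 0.111) and Kcnj8 (0.36, SE 0.152) had an unadjusted p under 0.05, and the groups of Kcnj8 and Vtn (0.13, SE 0.0757) did not overlap, with ELS higher in 2 of 9 markers against 3.81% of all genes. None of the 9 was called by edgeR or DESeq2, and their part in the difference in Sh2d3c was not tested.

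**Figure D5:**
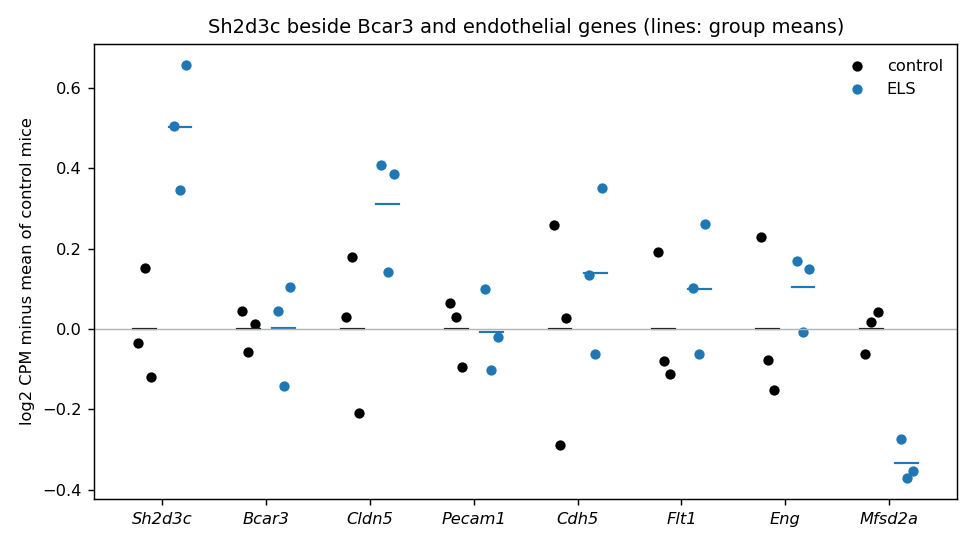
Log2 CPM minus the mean of the control mice (vertical axis) for Sh2d3c, Bcar3 and the endothelial genes Cldn5, Pecam1, Cdh5, Flt1, Eng and Mfsd2a in control mice (black) and ELS mice (blue); short lines are group means of 3 mice. The points separate by group for Sh2d3c, with ELS higher, and for Mfsd2a, with ELS lower, while those of the other genes overlap, Cldn5 (0.31 in the edgeR fit) included.

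Lymphoid and other leukocyte markers were low. Of 10 listed, 2 passed the filter and the sum was 4.19 to 9.22 CPM in controls and 4.6 to 6.42 CPM in ELS mice. Markers of neurons (6 tested, median log2 fold change -0.009), astrocytes (6, -0.02), oligodendrocytes (6, -0.03) and microglia (7, 0.02) were also without a call by either tool, and the neuron markers summed to between 7770 and 8310 CPM in each mouse. Neuron markers split into 1 higher and 5 lower, astrocyte markers 2 and 4, oligodendrocyte markers 1 and 5, and microglia markers 6 and 1. Groups did not overlap for 1 microglia marker, with ELS higher, and 1 astrocyte marker, with ELS lower, against 8.28% of all genes. Oligodendrocyte precursor markers (2 tested, 0.16) and the choroid plexus marker Kcnj13 (1 of 4 tested, 0.50, at 1.04 ± 0.284 CPM in controls and 1.46 ± 0.158 CPM in ELS mice) were higher without a call. The 4 choroid plexus markers summed to 1.88 to 2.65 CPM in controls and 2.08 to 3.48 CPM in ELS mice, which overlapped, and the untested Ttr was at 0.392 ± 0.254 and 0.337 ± 0.193 CPM. Striatal markers (7 tested, median 0.16) and blood markers (5, 0.02) had their highest sums in control mouse 3 and ELS mouse 1. The summed striatal level was 467 and 443 CPM there against 243 to 316 CPM in the other mice, and the summed blood level 85.2 and 79.7 CPM against 51.0 to 64.4 CPM. Oligodendrocyte sums were highest in the same mice, at 7750 and 6820 CPM against 5830 to 6470 CPM. The astrocyte sum was lowest in ELS mouse 1, at 4840 CPM against 5480 to 5640 CPM. Without control mouse 3 and ELS mouse 1 in turn, the log2 fold change of Sh2d3c was 0.45 and 0.51.

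Neighbouring genes were examined to see whether the difference extended along the chromosome. Within 100 kb of Sh2d3c, 10 of 18 annotated genes are protein-coding and 7 were tested, with log2 fold changes from -0.10 to 0.33. Cdk9 (0.003, SE 0.0633) and Tor2a (-0.01, SE 0.108) differed little, and Eng, an endothelial co-receptor for TGF-beta ligands, was at 0.10 (SE 0.106). Ak1, an adenylate kinase gene, was at 117, 123 and 121 CPM in controls and 112, 111 and 113 CPM in ELS mice (-0.10, SE 0.0617), lower without overlap. Fpgs, which encodes folylpolyglutamate synthase, was higher without overlap, at 4.26, 4.43 and 5.10 CPM in controls and 6.12, 5.32 and 5.89 CPM in ELS mice (0.33, SE 0.144, edgeR adjusted p = 1). Groups thus did not overlap for 2 of the 7 neighbours, in opposite directions, against 8.28% of all genes. Between Fpgs and Sh2d3c lies Cdk9, at 73.2 to 77.1 CPM in controls and 73.7 to 76.8 CPM in ELS mice.

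The genes whose pattern over the 6 mice was most like that of Sh2d3c were found by the root mean square distance between centred log2(CPM + 1) values. The 5 nearest were Cecr2 (distance 0.0373), Cyb5rl (0.0600), Dll4 (0.0730), Slc40a1 (0.0853) and Ap5b1 (0.0876), against a median of 0.284 over 13184 genes. Cecr2, a chromatin remodelling factor, was at 2.57, 3.15 and 2.58 CPM in controls and 4.02, 3.55 and 4.84 CPM in ELS mice. Dll4, a Notch ligand of endothelial cells, was at 1.72, 2.09 and 1.54 CPM in controls and 2.55, 2.06 and 3.07 CPM in ELS mice, and Slc40a1, the iron exporter ferroportin, at 12.6, 14.4 and 13.5 CPM in controls and 17, 17.2 and 20.3 CPM in ELS mice. The measure picks genes with a like group difference, so these differences carry no test, and a pseudocount of 0.1 in place of 1 gave 3 of the same 5 genes. The other 9 genes of the chain lay between 0.251 (Efs) and 0.336 (Bcar1) from Sh2d3c, around the median of all genes.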

How the data were processed

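Reads were trimmed (Trimmomatic) and aligned to mm10 (STAR) by the authors, who used HTSeq to count those with a unique hit. The processing notes name STAR 2.7.1a and HTSeq 0.9.1, and the study's methods name another STAR version. The authors deposited raw counts per gene symbol, with 1 column per mouse. The annotation release and strand setting are not given in the sources used here. The ELS columns carry an abbreviation for isolation and a number, by which they were matched to the ELS mice.

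Genes that reached 1 CPM in each mouse of either group were scaled by TMM and tested with the quasi-likelihood test of edgeR 4.0.16 in R 4.3.3, with Benjamini-Hochberg adjustment over 13185 genes. The filter, the thresholds and the 2-group design follow the study's methods, which used DESeq. Intervals are 95% from the fit. DESeq2 1.42.0, the likelihood ratio test, limma-voom (limma 3.58.1), other scalings and filters, omission of each mouse and a replicate block were alternatives. The test was checked on simulated counts. Lengths and coordinates are from GENCODE M21 on GRCm38 (also named mm10), which held 89.2% of the symbols. Shared 75-base stretches with other genes made up 4.48% of Rap1a, 0.399% of Bcar3 and 0 of the other members.

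The genes and lists were chosen with earlier results of these data known. Genes named are the members, Cass4, the smallest p in each direction of each list, the 5 nearest patterns, tested neighbours and Cldn5, Pecam1, Cdh5 and Flt1. Other genes named, such as Mfsd2a, Tek, Ttr, Pdgfrb, Kcnj8, Vtn, Kcnj13, Rap2b, Epha7, Epha8 and Rapgef3, were chosen after their values were seen. Drd1, listed as a marker, was not analysed here, and some further genes that fall under these rules are not reported here.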

Additional observations from a re-analysis of the deposited data

How the results depend on the processing

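The log2 fold change of Sh2d3c was 0.50 to 0.52 under other tests, scalings and filters and between 0.42 and 0.59 on omission of 1 mouse, and its direction was fixed by the choice of the gene. The 9 other genes had 0 calls in all 15. The number of genes called in the whole table moved from 2 to 18 with DESeq2, to 28 with the likelihood ratio test and to 4 without the filter on low counts, and ran from 1 to 29 with a mouse left out (29 without control mouse 3). With the replicate block it was 7. The replicate numbers name different mice, and deviations of same-numbered mice correlated at -0.16, 0.26 and -0.04. With 3 mice per group these values cannot show whether same-numbered mice shared a litter, and the main fit did not pair them. The direction was not stable for log2 fold changes near 0. Bcar3 turned to -0.0026 with limma-voom and ran from -0.05 to 0.07 with a mouse left out. With a mouse left out, Nedd9 ran from -0.088 to 0.109, Crkl from -0.089 to 0.051, Rap1a from -0.01 to 0.165, Rap1b from -0.054 to 0.083, and the log2 ratio of Crkl to Crk from -0.128 to 0.028, and the cause was not tested. Bcar1 stayed lower, from -0.192 (without ELS mouse 1) to -0.091 (without control mouse 1), Efs higher, from 0.027 (without control mouse 2) to 0.209 (without ELS mouse 2), Crk higher, from 0.021 to 0.06, and Rapgef1 lower, from -0.17 (without ELS mouse 2) to -0.037 (without ELS mouse 1). The log2 ratio of Nedd9 to Bcar1 ran from 0.022 to 0.295, that of Rap1b to Rap1a from -0.089 to -0.014 and that of Efs to Bcar1 from 0.185 to 0.365. List medians also moved on omission of a mouse. The median of Rap1 effectors ran from -0.115 (without control mouse 3) to 0.023, of Eph receptors from -0.114 (without control mouse 3) to 0.019, of reelin genes from -0.049 to 0.079, of ephrins from -0.046 to 0.03, of integrins from -0.02 to 0.048, of Cas partners from -0.035 to 0.018, of the DOCK arm from -0.033 to 0.039, of Rap1 regulators from -0.083 to -0.022, and of Rap2 and R-Ras GTPases from 0.032 to 0.098 (without control mouse 1). The 3 mice per group limit these comparisons, and so does depth for genes with few reads.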
